A study of Mus musculus with 22 samples.

Results

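Zfp352, Spz1, Tmem92, Sp110, Ddit4l and Patl2 are 6 genes listed as markers of the 2-cell stage that were expected to consist mostly of sequence found once in the genome. They were chosen by name, with earlier results of these data known, and make up 6 of the 55487 genes listed in each of the deposited tables. All libraries came from mouse embryonic stem cells without the Dux gene (Dux-/-), grown in 2i and LIF, given 0.25 ug/mL doxycycline for 12 hours after a recovery of 24 hours. Each line carried mCherry, a red fluorescent protein, alone (mCherry) or joined to mouse DUX or a derivative of it. FL is the full-length protein. C3+14 and C1+14 are named for a single block and the part called 14, C1C3a, C1C3b and C1C3c for C1 together with C3, C12345delt14 for the blocks without 14, deltC12345+14 for 14 without the blocks, and deltC12345delt14 for neither. The column headers of the chimera table add 14aa to the names of the 3 C1C3 constructs. The labels do not say how a, b and c differ, whether a line is 1 clone, or which promoter drives the transgene. Each group had 2 libraries of poly(A) RNA, and the labels do not say whether these were separate cultures, so the tests measure only the spread between libraries. The chimera table holds mCherry, FL, the 3 C1C3 constructs, C3+14 and C1+14 (14 libraries), and the deletion table holds the same FL libraries with C12345delt14, deltC12345+14 and deltC12345delt14 (8 libraries).

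DUX is a transcription factor with a pair of homeodomains, DNA-binding folds near its N-terminus. It is made in the early mouse embryo when the embryo's own genes are first switched on, and it activates genes of the 2-cell stage when it is induced in embryonic stem cells. The C-terminal part of mouse DUX holds a row of similar blocks, the C of the construct names, followed by a short tail. Many genes that respond to DUX, such as the Zscan4 family, lie in arrays of near-identical copies whose reads are hard to assign, which is why genes of mostly unique sequence are of use for ranking constructs.

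The label of few copies held for 5 of the 6 genes. Spz1 and Patl2 shared 0% of the 50-base words of their transcripts with other annotated genes, Ddit4l 0.175%, Tmem92 1.93% and Zfp352 7.09%. Sp110 shared 42.3%, close to the median of 51.1% over a list of 35 multi-copy 2-cell genes, and its words recurred in 136 other genes. One of these, Gm16026, held 26.7% of the words of Sp110 and had 2933 and 1938 reads in FL, 4130 and 4188 in C3+14 and 0 in both mCherry libraries. The counts of Sp110 and Gm16026 can therefore take reads from each other, and levels of Sp110 are uncertain. Zfp352 shared words with 2 genes, mostly with Zfp353-ps, which had 2886 and 1227 reads in FL, and 18 words with Enah, which had reads in all libraries. Sp110 also overlaps G530012D18Rik on the opposite strand over 392 exonic bases, a gene with at most 2 reads in any library.

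In the GENCODE M21 annotation (GRCm38), Zfp352 (ENSMUSG00000070902) lies on chromosome 4 from 90218820 to 90225702 on the plus strand and has 2 exons. Spz1 (ENSMUSG00000046957) is a gene of 1 exon on chromosome 13 from 92574636 to 92576172, minus strand. Tmem92 (ENSMUSG00000075610) lies on chromosome 11 from 94777217 to 94782703, and Sp110 (ENSMUSG00000070034) on chromosome 1 from 85576899 to 85598817, both on the minus strand. Ddit4l (ENSMUSG00000046818) lies on chromosome 3 from 137621612 to 137628333 on the plus strand. Patl2 (ENSMUSG00000027233) lies on chromosome 2 from 122120108 to 122186189 on the minus strand, and spans Trim69 and B2m on the other strand with 0 exonic bases in common.

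The promoters of the genes are shown as a description of their sequence. RefSeq windows (GRCm38.p6) of 300 bases, 250 before and 50 after a transcription start, matched 5 of the 6 genes, and Tmem92 had no entry. The 250 bases before the start are printed, 5′ to 3′ along the gene, with every TAATC on either strand in capitals. TAATC is a core that homeodomains of the bicoid type bind. Zfp352 and Sp110 are the 2 genes whose windows hold it, and Spz1 and Patl2 stand for those without it. The windows are chr4:90218570-90218819 (plus strand) for Zfp352, chr1:85603892-85604141 (minus strand) for a start of Sp110 that lies upstream of its GENCODE M21 model, chr13:92576233-92576482 (minus strand) for Spz1 and chr2:122186190-122186439 (minus strand) for Patl2.
Zfp352: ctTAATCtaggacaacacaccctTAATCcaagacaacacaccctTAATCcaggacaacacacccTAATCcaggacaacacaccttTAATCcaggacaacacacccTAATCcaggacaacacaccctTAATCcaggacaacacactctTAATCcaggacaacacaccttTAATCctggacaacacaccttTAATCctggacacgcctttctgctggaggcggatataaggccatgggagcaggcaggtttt
Sp110: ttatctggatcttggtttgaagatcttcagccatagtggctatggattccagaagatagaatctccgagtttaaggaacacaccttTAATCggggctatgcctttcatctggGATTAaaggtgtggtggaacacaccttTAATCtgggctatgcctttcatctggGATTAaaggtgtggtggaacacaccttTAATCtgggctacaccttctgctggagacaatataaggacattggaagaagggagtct
Spz1: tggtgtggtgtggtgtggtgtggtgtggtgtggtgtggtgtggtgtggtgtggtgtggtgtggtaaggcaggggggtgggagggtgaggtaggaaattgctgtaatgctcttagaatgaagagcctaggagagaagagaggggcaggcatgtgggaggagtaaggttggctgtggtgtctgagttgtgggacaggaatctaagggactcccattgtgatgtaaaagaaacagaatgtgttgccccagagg
Patl2: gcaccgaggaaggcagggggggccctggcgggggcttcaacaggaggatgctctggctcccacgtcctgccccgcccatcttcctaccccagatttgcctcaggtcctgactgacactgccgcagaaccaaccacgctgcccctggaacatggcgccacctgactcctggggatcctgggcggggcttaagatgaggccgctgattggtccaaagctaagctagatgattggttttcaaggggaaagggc

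The Zfp352 window held 10 TAATC matches, all on the strand of the gene and spaced by 20 or 21 bases. It was the 1 window among 32851 with 10 or more. The upstream window of Sp110 held 5, of which 3 were on the gene's strand and 2 on the other. Only 7 windows held 5 or more, whereas 22.0% held at least 1. The window at the downstream start of Sp110 (chr1:85598811-85599060 before the start) held 1, and those of Spz1, Ddit4l and Patl2 held 0. The longer paired motif of DUX, TGATT and AATCA with 1 base between them, searched on both strands, was in none of the 6 windows and in 0.0335% of all windows. TGATT, which is part of the paired motif, was present 2 times in Patl2 and is in 37.0% of windows. These matches describe letters in the windows. No binding was measured, and the part of these matches in the levels below was not tested.

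**Figure D1:**
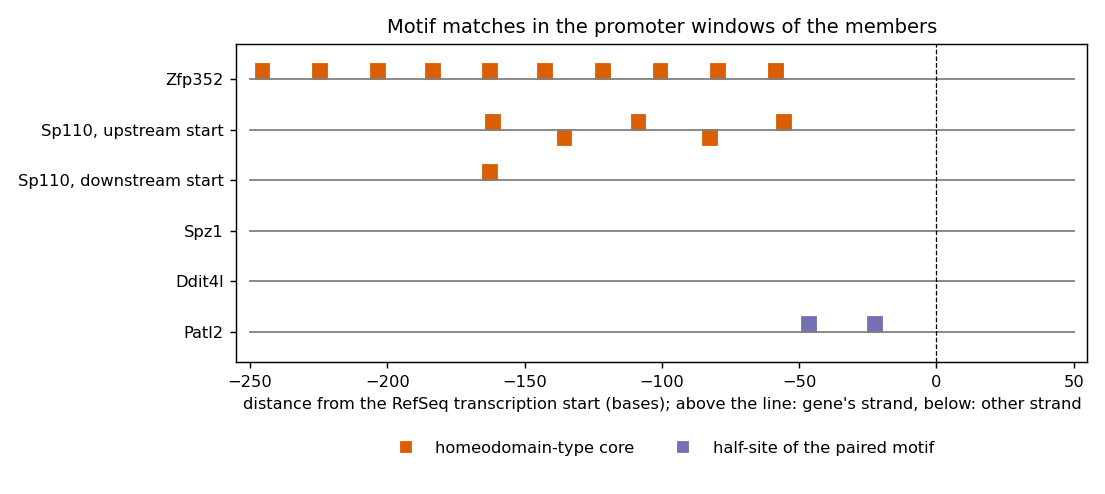
Motif matches in 6 promoter windows of 5 genes, by distance in bases from the RefSeq transcription start (dashed line), drawn above the line for the gene's strand and below it for the other. Orange squares are TAATC and purple squares TGATT. Zfp352 has a row of 10 orange squares, the upstream start of Sp110 has 5 on alternating strands, and Spz1 and Ddit4l have none of either.

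Library totals were between 21059953 and 40448890 reads. Duxf3 and Gm4981, copies at the Dux locus, had 0 reads in all 20 libraries, and the amount of each transgene was not analysed here, so differences between constructs and differences in their amount cannot be told apart. In bulk RNA, fewer cells with a gene on and less RNA per cell cannot be told apart either. The libraries were of 2 kinds. Genes of many copies (1637 genes) took 1.67% to 2.59% of the reads in 14 libraries and 0.299% to 0.430% in 6. The 6 were those of C3+14 and mCherry, replicate 2 of deltC12345+14 and replicate 1 of deltC12345delt14. The part of this difference in the results was not tested. The 12 pluripotency markers, all with reads in every group, summed to 123049 and 121636 normalised reads in mCherry and to between 51142 and 97410 in the constructs of the chimera table. Of these 12, limma called 9 lower in FL, 5 in C1C3a, 9 in C1C3b, 8 in both C1C3c and C3+14, and 4 in C1+14. Over all genes, the share called lower was 19.6% in FL, 19% in C1C3a, 17.1% in C1C3b, 10.5% in C1C3c, 17.7% in C3+14 and 5.95% in C1+14. Primitive endoderm markers (7 genes) summed to 189 and 202 in mCherry and 155 to 732 in the constructs, and fibroblast markers (7 genes) to 61.4 and 78.9 against 35.4 to 183. Trophectoderm markers (8 genes) summed to 2103 and 2209 in mCherry and 605 to 1114 in the constructs. Among the groups of the chimera table, Hand1, Sox7, Dcn and Lum were at 0 reads in FL, and Dcn, Lum and Postn in mCherry. Dcn and Postn were at 0 reads in C1C3a, and Dcn in C1C3c. The part of all these markers in the results was not tested.

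Normalised reads are counts per gene divided by the size factor of the library, as the authors deposited them. A gene was called when the Benjamini-Hochberg adjusted p of limma, fitted on log2(value + 1) over all tested genes of a table, was under 0.05 and the log2 fold change was at least 1 in size. Zfp352, Spz1, Tmem92 and Sp110 passed the filter on low values (at least 10 in at least 2 libraries) only through the groups in which they were high, so their differences were partly set by the filter. Ddit4l and Patl2 were at 10 or more in all libraries.

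Zfp352, a zinc finger gene used as a marker of the 2-cell-like state, was high in FL, C3+14 and C1C3a and close to absent elsewhere. It had 0 reads in both mCherry and both C1+14 libraries, 0 and 2 in C1C3c, 63 and 30 in C1C3b, 5283 and 3893 in FL, 16868 and 18932 in C3+14, and 20714 and 20809 in C1C3a. In normalised reads this was 55.3 and 28.2 in C1C3b, 7784 and 4634 in FL, 28261 and 30663 in C3+14, and 22928 and 29459 in C1C3a. The libraries of C3+14 and C1C3a overlapped, and both groups lay above both FL libraries. C3+14 was at 475% ± 27.4 of the FL mean and C1C3a at 422% ± 74.4, while C1C3b was at 0.672% ± 0.309 (SD, n = 2). In this and later percentages of FL, the SD takes the FL mean as fixed and leaves out the spread between the FL libraries. Against mCherry, set to a floor of 3 reads in each library, FL was at least 2727-fold higher and C3+14 at least 12942-fold. Between neighbours in the order of levels, C1C3a exceeded FL by a log2 difference of 2.11 (SE 0.40, limma adjusted p 0.00210), FL exceeded C1C3b by 7.21 (SE 0.40, adjusted p 1.97e-08) and C1C3b exceeded C1C3c by 4.72 (SE 0.40, adjusted p 4.56e-06). C3+14 and C1C3a differed by 0.18 (SE 0.40, adjusted p 0.789).

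Spz1, a bHLH-zip transcription factor gene known from spermatogenesis, gave the same split with fewer reads. It had 0 reads in both mCherry libraries, 0 and 3 in C1+14, 0 and 13 in C1C3c, 12 and 6 in C1C3b, 379 and 306 in FL, 427 and 453 in C3+14, and 707 and 841 in C1C3a. Normalised reads were 558 and 364 in FL, 715 and 734 in C3+14, and 783 and 1191 in C1C3a. FL, C3+14 and C1C3a each had both libraries above 300 normalised reads and did not overlap with the other groups. Their order, C1C3a, C3+14, FL, had no step past the threshold (log2 differences 0.41 and 0.68, SE 0.82 each, limma adjusted p 0.759 and 0.535). C1C3a and FL differed by 1.10 (SE 0.82, adjusted p 0.365), which was called with a pseudocount of 8 (adjusted p 0.0379) and in a fit of these groups alone (0.0208). FL exceeded C1C3b by 5.69 (SE 0.82, adjusted p 5.91e-05), a ratio of 57.1. In C1C3c all 13 reads came from replicate 2, and the group overlapped with mCherry.

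Sp110, which codes for a nuclear body protein of the Sp100 family and shares sequence as described above, had 1 and 0 reads in mCherry, 4 and 1 in C1+14, 1 and 5 in C1C3c, 36 and 42 in C1C3b, 4249 and 3242 in FL, 6354 and 6859 in C3+14, and 7646 and 5485 in C1C3a. In normalised reads FL stood at 6260.3 and 3859, C3+14 at 10646 and 11109, and C1C3a at 8463 and 7765. C3+14 was highest, both its libraries above both of C1C3a, and C1C3a above FL, but neither step passed the threshold (log2 differences 0.42 and 0.72, SE 0.47 each, limma adjusted p 0.554 and 0.288). The fall from FL to C1C3b was a log2 difference of 7.08 (SE 0.47, adjusted p 8.02e-08) and that from C1C3b to C1C3c 3.71 (SE 0.47, adjusted p 1.48e-04). C1C3b kept 0.702% ± 0.110 of the FL mean (SD, n = 2).

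Tmem92, a gene for a membrane protein, was the 1 member called above mCherry in C1C3c. It had 0 and 1 reads in mCherry, 1 and 7 in C1+14, 643 and 357 in C1C3c, 4510 and 4224 in C1C3b, 13184 and 13043 in C3+14, 22996 and 15343 in C1C3a, and 27587 and 25400 in FL. In normalised reads FL had 40645 and 30236, C1C3a 25454 and 21721, C3+14 22089 and 21125, C1C3b 3955 and 3965, and C1C3c 485 and 241. FL was the highest group and did not overlap with C1C3a or C3+14, the reverse of the order of Zfp352, but its log2 difference from C1C3a, 0.58, did not pass the threshold (SE 0.44, limma adjusted p 0.374). C1C3b kept 11.2% ± 0.0194 of the FL mean and C1C3c 1.02% ± 0.485 (SD, n = 2, without the spread of FL). Each of the steps C3+14 to C1C3b (a log2 difference of 2.45, SE 0.44), C1C3b to C1C3c (3.53, SE 0.44) and C1C3c to C1+14 (6.82, SE 0.44) was past the threshold, with limma adjusted p of 5.37e-04, 1.33e-04 and 5.78e-07. The level of C1+14 rests on 1 and 7 reads. It was 7.20 times that of mCherry, with a 95% counting interval of 0.965 to 319, and was not called. It was called without replicate 1 of C1+14 (log2 fold change 1.97, limma adjusted p 0.00259) or replicate 2 of mCherry (1.60, adjusted p 0.0482).

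**Figure D2:**
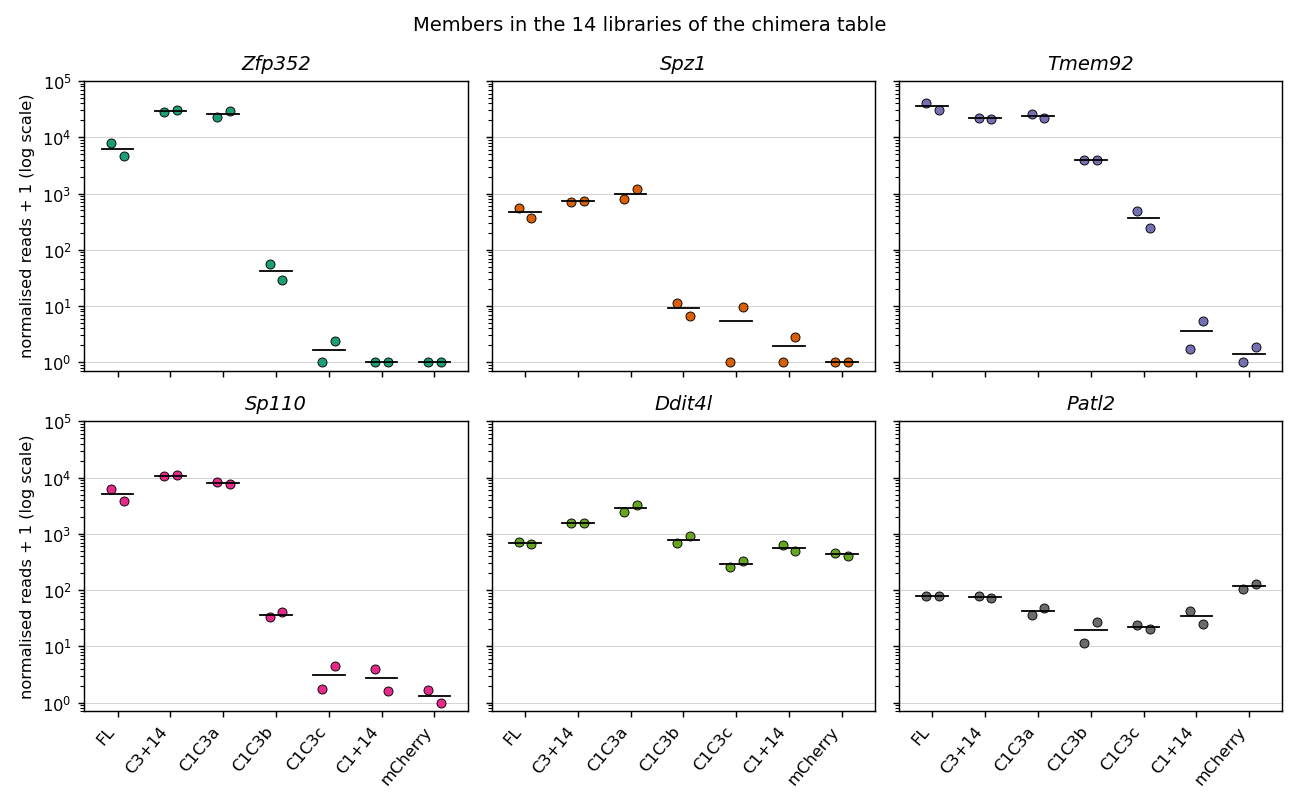
Normalised reads plus 1 (log scale) of the 6 genes in the 14 libraries of the chimera table. Points are libraries, 2 per construct, and bars are group means. Zfp352, Spz1 and Sp110 drop between C1C3a and C1C3b to under 60 normalised reads, Tmem92 steps down through C1C3b and C1C3c, and Ddit4l and Patl2 have reads in all 14 libraries.

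Ddit4l, which codes for an inhibitor of mTORC1 signalling also known as REDD2, was expressed without DUX. Normalised reads were 463 and 408 in mCherry, 728 and 658 in FL, 1555 and 1573 in C3+14, 2417 and 3228 in C1C3a, 680 and 898 in C1C3b, 260 and 327 in C1C3c, and 623 and 501 in C1+14. C1C3a was highest and C1C3c lowest, below both mCherry libraries. FL lay above mCherry in both libraries after scaling, but its log2 difference of 0.67 (SE 0.19, limma adjusted p 0.00743) was short of the size needed for a call. That order rests on the scaling. Unscaled reads summed to 1047 in FL and 1178 in mCherry. Size factors were 0.679 and 0.840 in FL and 1.52 and 1.17 in mCherry, at totals of 32168300 and 31391063 against 31203170 and 23949774 reads. C3+14 and C1C3a were called higher than mCherry, with log2 fold changes of 1.84 and 2.68 (SE 0.19 each, limma adjusted p 2.15e-06 and 5.15e-08). C3+14 also exceeded FL by 1.17 (SE 0.19, adjusted p 3.20e-04) and C1C3a exceeded FL by 2.01 (SE 0.19, adjusted p 1.18e-05). C1C3c differed from mCherry by -0.58 (SE 0.19, adjusted p 0.0237), which did not reach the size threshold. C1C3b, at 0.84 (SE 0.19, limma adjusted p 0.00168), reached it without replicate 1 of C1C3b (1.04).

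Patl2, whose protein regulates stored mRNA in oocytes, is listed as a 2-cell marker but was called higher than mCherry in no construct. Its normalised reads were highest in mCherry, at 103 and 127, with 76.6 and 77.4 in FL, 77.1 and 71.3 in C3+14, 35.4 and 46.7 in C1C3a, 10.5 and 26.3 in C1C3b, 23.4 and 18.9 in C1C3c, and 41.7 and 24.2 in C1+14. All 12 libraries with a DUX construct were below both mCherry libraries. The gene was called lower in C1C3a (-1.47, SE 0.42), C1C3b (-2.70, SE 0.42), C1C3c (-2.39, SE 0.42) and C1+14 (-1.81, SE 0.42), with limma adjusted p of 0.00847, 1.15e-04, 5.71e-04 and 0.00594. FL and C3+14 were not called (-0.56 and -0.62, SE 0.42 each, adjusted p 0.267 and 0.219). Counts were between 12 and 156 reads per library. The call in C1C3a was lost without replicate 1 of C1C3a (adjusted p 0.0569) or replicate 2 of mCherry (0.0632), and that in C1+14 without replicate 2 of C1+14 (0.0582) or replicate 2 of mCherry (0.0557).

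Expressed per kilobase of exonic sequence, Tmem92 had the highest mean level of the 6 in FL, 16205 normalised reads per kilobase, ahead of Zfp352 with 2728 and Sp110 with 746. The value of Sp110 depends on the length used and was 1959 per kilobase of its longest transcript, still below Zfp352. Spz1 followed with 300.1, Ddit4l with 238 and Patl2 with 31.6. In C3+14, Zfp352 with 12945 per kilobase was above Tmem92 with 9879.7, so the order of the highest 2 genes depended on the construct. Whether the genes differed in their response was not tested.

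Against mCherry, limma called 4 of the 6 genes higher in FL and 0 lower, where 24.5% of all 21584 genes tested were called higher and 19.6% lower. In C3+14 it called 5 higher and 0 lower (29.6% of all genes higher, 17.7% lower), the additional gene being Ddit4l. In C1C3a, 5 were higher and 1, Patl2, lower (27.4% higher, 19% lower). In C1C3b, 4 were higher (Zfp352, Spz1, Tmem92 and Sp110) and 1 lower (27.6% higher, 17.1% lower). The rise of Spz1 in C1C3b, on 12 and 6 reads against 0, was not called with a pseudocount of 8 (log2 fold change 0.99). Tmem92 was the 1 gene called higher in C1C3c, with a log2 fold change of 7.98 (SE 0.44, limma adjusted p 2.62e-08), and Patl2 the 1 called lower (18.3% higher, 10.5% lower). In C1+14, 0 were called higher and 1 lower (12.4% higher, 5.95% lower), with 2 genes at an unadjusted p under 0.05 and 1 called by edgeR and by DESeq2. Spz1 in C1C3c, at 1.65 (SE 0.82, adjusted p 0.121), was called without replicate 1 of C1C3c (3.29, adjusted p 0.00119) and by edgeR and DESeq2, and it rests on replicate 2. Sp110 was called in C1C3c without replicate 1 of C1C3c (log2 fold change 1.77, limma adjusted p 0.0107) and in C1+14 without replicate 2 of C1+14 (1.61, adjusted p 0.0326), on 5 reads or fewer per library. These comparisons share the mCherry libraries.

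**Figure D3:**
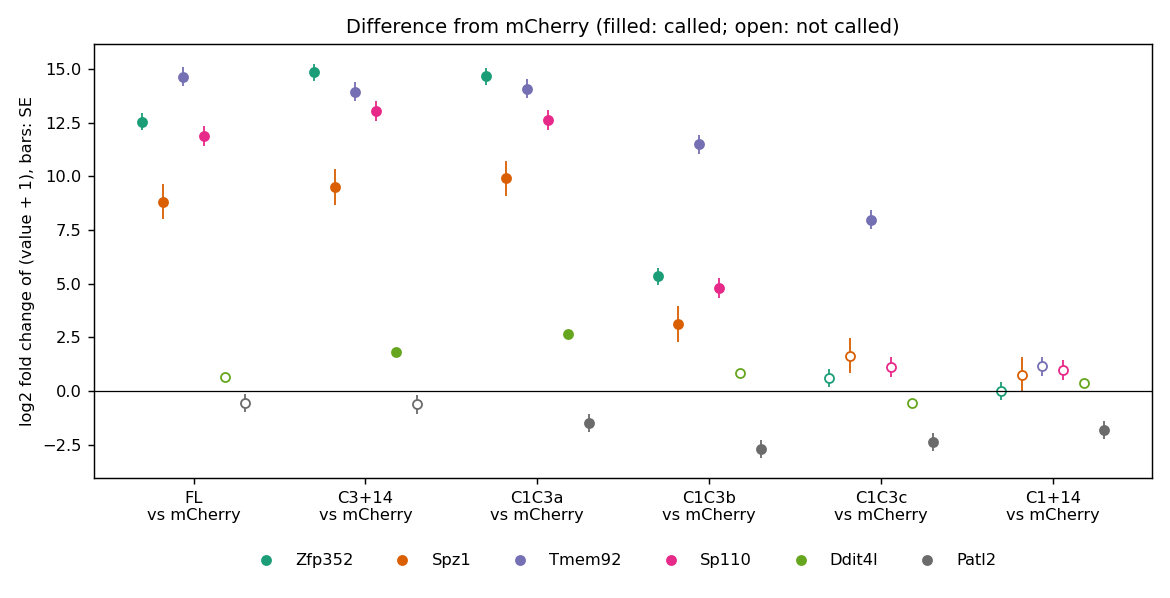
Log2 fold change against mCherry, on the log2(value + 1) scale, with the standard error from limma, for 6 genes in 6 constructs. Filled points were called and open points were not. Zfp352 falls from 14.67 in C1C3a to 5.34 in C1C3b and 0.62 in C1C3c, Tmem92 stays at 7.98 in C1C3c, and Patl2 lies below 0 in all 6 constructs.

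The next comparison was between C3+14, named for a single block, and the whole protein. Of the 6 genes, limma called 2 higher (Zfp352 by 2.29, SE 0.40, adjusted p 6.32e-04, and Ddit4l) and 0 lower, where 16.8% of all genes were called higher and 9.54% lower. With a pseudocount of 0.1, Zfp352 was no longer called (adjusted p 0.0677). Sp110, at 1.15 (SE 0.47, limma adjusted p 0.0662), was called by edgeR and by DESeq2. Tmem92 differed by -0.70 (SE 0.44, adjusted p 0.222). The FL libraries are of the kind with more reads in high-copy genes and those of C3+14 of the kind with fewer. Within 1 kind, C1C3a against FL gave 2 calls, again Zfp352 (2.11, adjusted p 0.121 with a pseudocount of 0.1) and Ddit4l, and 0 lower, where 11% of all genes were called higher and 4.62% lower.

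C1C3a and C3+14 differed in 0 of the 6 genes, where 14.9% of all genes were called. Ddit4l, higher in C1C3a by 0.84 (SE 0.19, limma adjusted p 0.00686), was the 1 gene at an unadjusted p under 0.05, and edgeR and DESeq2 also called 0. Leaving out replicate 1 of C1C3a, Ddit4l was called (1.05, adjusted p 0.00750). Between C1C3b and C1C3a, all 6 were lower in C1C3b, where 17.3% of all genes were called lower and 18.3% higher. The differences were -9.33 for Zfp352 (SE 0.40), -7.80 for Sp110 (SE 0.47), -6.79 for Spz1 (SE 0.82), -2.57 for Tmem92 (SE 0.44), -1.84 for Ddit4l (SE 0.19) and -1.23 for Patl2 (SE 0.42), with limma adjusted p between 1.45e-09 and 0.0252. As ratios of mean levels, C1C3a held 628 times the Zfp352 of C1C3b, 229 times the Sp110, 122 times the Spz1 and 5.96 times the Tmem92. The call of Patl2 was lost in edgeR (adjusted p 0.0556), in a limma fit of these groups alone (adjusted p 0.0830) and with a pseudocount of 8 (-0.95). It was also lost without replicate 2 of C1C3a (-1.04) or replicate 1 of C1C3b (-0.61). The libraries of C1C3a and C1C3b are all of the kind with more reads in high-copy genes. Those of C3+14 are of the kind with fewer, and the part of this in the comparison with C1C3a was not tested.

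From C1C3b to C1C3c, 4 genes fell (Zfp352, Tmem92, Sp110 and Ddit4l), where 7.66% of all genes were called lower, and 0 rose (3.53%). Ddit4l fell by 1.42 (SE 0.19, limma adjusted p 2.24e-04). Spz1 and Patl2 were not called, at -1.48 (SE 0.82) and 0.31 (SE 0.42), but Spz1 was called without replicate 2 of C1C3c (-3.13, limma adjusted p 0.00560). Between C1C3c and C1+14 the only call was Tmem92, where 5.37% of all genes were called higher and 2.46% lower. Leaving out replicate 1 or 2 of C1C3c, or replicate 2 of C1+14, gave 3, 2 and 2 calls. Ddit4l was lower in C1C3c by 0.94 (SE 0.19, adjusted p 0.00638), short of the size threshold.

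**Figure D4:**
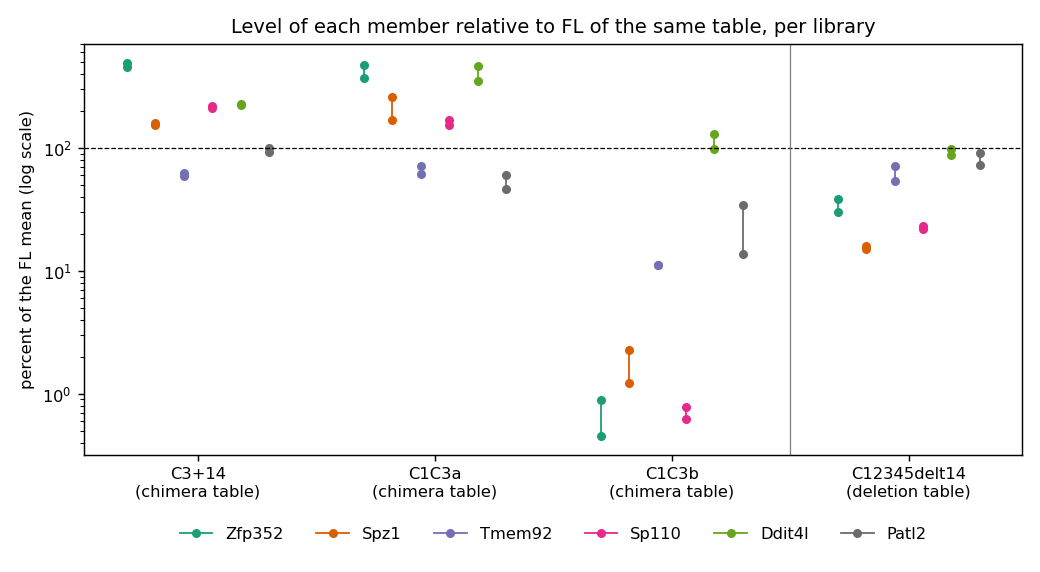
Level of each gene in percent of the FL mean of the same table (log scale, dashed line at 100%), with the 2 libraries of a group joined by a line. Zfp352 lies near 400% in C3+14 and C1C3a and under 1% in C1C3b, Tmem92 stays at 11.2% in C1C3b, and in C12345delt14 the genes spread from 15.6% (Spz1) to 92.2% (Ddit4l).

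The deletion table asks what the blocks and the part called 14 contribute. Zfp352 had 9573 and 5797 normalised reads in FL, 2949 and 2315 in C12345delt14, and 0 reads in both libraries of deltC12345+14 and of deltC12345delt14. Spz1 had 687 and 456 in FL, 86.9 and 91.0 in C12345delt14, and 0 reads in the 4 libraries without the blocks. Tmem92 had 49991 and 37820.5 in FL, 31465 and 23717 in C12345delt14, 0 and 3 reads in deltC12345+14, and 0 in deltC12345delt14. Sp110 had 7699.6 and 4827 in FL and 1462 and 1384 in C12345delt14, with 1 and 6 reads in deltC12345+14 and 3 and 0 in deltC12345delt14. In each of these 4 genes both C12345delt14 libraries lay below both FL libraries and far above the libraries without the blocks.

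C12345delt14 kept 15.6% ± 0.512 of the FL mean for Spz1, 22.7% ± 0.880 for Sp110, 34.3% ± 5.83 for Zfp352, 62.8% ± 12.5 for Tmem92, 82.0% ± 12.7 for Patl2 and 92.2% ± 7.30 for Ddit4l (SD, n = 2, without the spread of FL). limma called 0 of the 6 against FL, where 0.958% of all 19833 genes were called. The log2 differences were -2.64 for Spz1 (SE 0.47, adjusted p 0.0518), -1.51 for Zfp352 (SE 0.37, adjusted p 0.0778) and -2.10 for Sp110 (SE 0.70, adjusted p 0.126), the 3 genes at an unadjusted p under 0.05. All 3 were called by edgeR (adjusted p 0.0282, 0.0459 and 0.0286 in that order), by DESeq2, with a pseudocount of 8 and in a fit of these groups alone. Whether these genes fell thus depended on the fit, while the direction was the same in all fits that tested them. Without replicate 2 of FL, limma called 2 of the 6, Spz1 (-2.94, adjusted p 0.0327) and Zfp352 (-1.87, adjusted p 0.0499). Tmem92 (-0.67, SE 0.49), Ddit4l (-0.12, SE 0.44) and Patl2 (-0.29, SE 0.31) were called in none of these.

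Without the blocks, 5 of the 6 genes (all but Patl2) were lower than FL in deltC12345+14, where 20% of all genes were called lower and 18.4% higher. The same 5 were lower in deltC12345delt14, where 20.3% were called lower and 18.8% higher. Zfp352 was at least 3609-fold lower than FL in deltC12345+14 and at least 3106-fold lower in deltC12345delt14, and Spz1 at least 268-fold and at least 231-fold. The ratio of FL to deltC12345+14 for Tmem92 was 40685, with a 95% counting interval of 13921 to 197290.

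**Figure D5:**
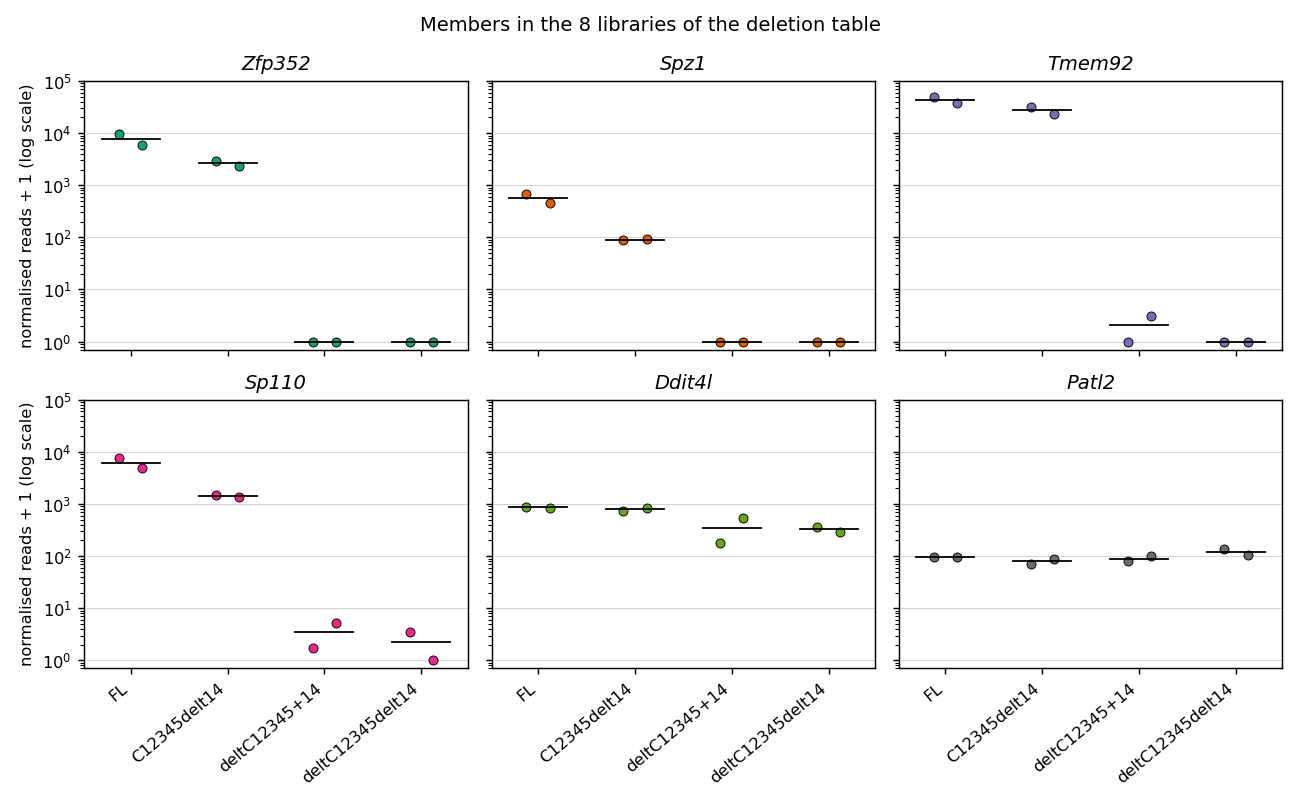
Normalised reads plus 1 (log scale) of the 6 genes in the 8 libraries of the deletion table, drawn as in the plot of the chimera table. Zfp352, Spz1, Tmem92 and Sp110 are at 5 normalised reads or fewer in the 4 libraries without the blocks and between 86.9 and 31465 in C12345delt14.

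Ddit4l had 895 and 823 normalised reads in FL, 748 and 836 in C12345delt14, 176 and 528 in deltC12345+14, and 364 and 291 in deltC12345delt14. After scaling, all 4 libraries without the blocks were below the 4 with them. That order rests on the scaling. Unscaled reads summed to 1047 in FL, 986 in deltC12345+14 and 794 in deltC12345delt14. Size factors were 0.552 and 0.672 in FL, 1.43 and 1.39 in deltC12345+14, and 1.22 and 1.21 in deltC12345delt14. The calls of Ddit4l against FL (-1.49, SE 0.44, limma adjusted p 0.0221 in deltC12345+14, and -1.40, SE 0.44, adjusted p 0.0277 in deltC12345delt14) were lost in several fits. Without replicate 1 of FL the adjusted p was 0.106 and 0.124, and without replicate 2 of FL 0.0746 and 0.0877. Without replicate 1 of deltC12345+14, the library of the kind with more high-copy reads, the difference was -0.70, and without replicate 1 or 2 of deltC12345delt14 the adjusted p was 0.0579 or 0.101. Patl2 had 94.2 and 96.8 in FL, 69.7 and 86.9 in C12345delt14, 78.5 and 98.4 in deltC12345+14, and 133.8 and 102.8 in deltC12345delt14, and was not called in any comparison of this table.

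C12345delt14 exceeded deltC12345delt14 in 4 genes, where 12.6% of all genes were called higher and 9.4% lower. The log2 differences were 14.74 for Tmem92 (SE 0.49), 11.35 for Zfp352 (SE 0.37), 9.58 for Sp110 (SE 0.70) and 6.49 for Spz1 (SE 0.47), with limma adjusted p of 3.94e-07, 3.61e-07, 4.63e-05 and 4.65e-05. Ddit4l was at 1.28 (SE 0.44, limma adjusted p 0.0571). It was called by edgeR (adjusted p 0.0497), by DESeq2 (0.00633), with a pseudocount of 8 (0.0456), among genes with under 10% shared words (0.0234) and in a fit of these groups alone (0.0108). Between deltC12345+14 and deltC12345delt14 limma, edgeR and DESeq2 called 0 of the 6, with 0 at an unadjusted p under 0.05 in limma. Over all genes, limma called 0%, edgeR 0 genes and DESeq2 3 genes. Both groups mix the 2 kinds of library. High-copy genes took 2.31% and 0.400% of the reads in deltC12345+14 and 0.430% and 2.59% in deltC12345delt14. The spread within each group includes the difference between kinds, so the lack of calls cannot show that 14 has no effect without the blocks. The interaction term, which asks whether the part called 14 has a different effect with and without the blocks, was called by limma, edgeR and DESeq2 in 0 of the 6. limma called 0% of all genes for it, edgeR 0 genes and DESeq2 153 genes. For Spz1 it was 2.64 (SE 0.67, limma adjusted p 0.312) and for Zfp352 1.51 (SE 0.52, adjusted p 0.319), the 2 genes at an unadjusted p under 0.05. Those sizes rest on libraries without the blocks that had 0 reads, where no further fall can be seen.

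The multi-copy list was chosen with earlier results of these data known, so its counts are descriptions. All 35 of its genes were called higher than mCherry in each of FL, C1C3a and C3+14 (24.5%, 27.4% and 29.6% of all genes). In C1+14, 8 were called higher and 2 lower, in C1C3c 23 and 1, and in C1C3b 29 and 1. Over all genes, the shares called higher and lower were 12.4% and 5.95% in C1+14, 18.3% and 10.5% in C1C3c, and 27.6% and 17.1% in C1C3b. Between C3+14 and FL the list did not move one way, with 11 genes called higher in C3+14 and 4 lower (16.8% and 9.54% of all genes). Its median log2 difference was 0.20, against 0.08 over all genes. Between C1C3a and C3+14, 2 were higher in C1C3a and 5 lower, where 14.9% of all genes were called in either direction. The 4 with the highest mean in FL were Gm4340, Gm6763, Zscan4f and Zscan4c, between 85.5% and 100% of whose 50-base words are shared. Gm6763 had a mean of 752546 normalised reads in FL, 548366 in C1C3a and 236 in C3+14, and Gm4340 had 946574, 674697 and 32673. Zscan4f had 743485, 237708 and 539568 in the same groups, and Zscan4c 656639, 216965 and 461923. By these means C3+14 lay below C1C3a for Gm6763 and Gm4340 and above it for Zscan4f and Zscan4c, and it lay below FL for all 4, whereas for Zfp352 (6209, 26194 and 29462) it lay above FL. The reads of C3+14 in the high-copy genes defined above were few, but that set leaves out most reads of this list in FL. The part of that difference in these values was not tested.

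Among 9 other single-gene 2-cell markers, limma called 7 higher and 1 lower in C1C3a and in C3+14, 6 and 1 in FL, 6 and 0 in C1C3b, 4 and 1 in C1C3c, and 1 and 0 in C1+14. Over all genes, the shares called higher and lower were 27.4% and 19% in C1C3a, 29.6% and 17.7% in C3+14, and 24.5% and 19.6% in FL. They were 27.6% and 17.1% in C1C3b, 18.3% and 10.5% in C1C3c, and 12.4% and 5.95% in C1+14. Nelfa, a subunit of the negative elongation factor, had mean normalised reads of 20541 in FL, 54125 in C1C3a and 32657 in C3+14. Its means were 1339 in mCherry, 1285 in C1+14, 1045 in C1C3c and 1159 in C1C3b. Its log2 fold change was 3.92 in FL (limma adjusted p 2.21e-10) and -0.21 in C1C3b (adjusted p 0.282). Ubtfl1 had 6255 in C3+14, 3251 in C1C3a, 1949.6 in FL, 363 in C1C3b and 11.0 in C1C3c, against 2.94 in mCherry. Dppa2, an activator of Dux and of 2-cell genes, was called higher in C3+14 (2.46), C1C3a (2.54) and C1C3b (1.15) but not in FL (0.91, limma adjusted p 5.05e-04). Dppa4, its partner, was called higher in C1C3c alone of the 6 constructs (1.18, limma adjusted p 1.54e-04). Dppa2 and Dppa4 share 29.1% and 31.3% of their 50-base words.

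Over the 7 group means of the chimera table, log2(value + 1) of Zfp352, Spz1 and Sp110 correlated with Pearson's r between 0.992 and 0.997, and Tmem92 correlated with each of the 3 at between 0.881 and 0.887. Ddit4l correlated with them at 0.815 to 0.847 and Patl2 at no more than 0.280. These are descriptions over 7 groups that share libraries, depth and scaling. Among genes with under 10% of words shared, the profiles most like Zfp352 were those of Cd163 (r 0.999) and Olfr18 (0.998). Ccser1 (0.999) and Kcnn2 (0.998) were most like Spz1, Polr3c (0.998) and Khdrbs3 (0.988) most like Tmem92, Zfp352 (0.997) and Maged1 (0.996) most like Sp110, Aldh2 (0.963) and March5 (0.961) most like Ddit4l, and Zfp692 (0.981) and Manf (0.978) most like Patl2. Likeness in r does not carry size. Ccser1 had means of 9048 in C1C3a, 6667 in C3+14, 3554 in FL, 75.8 in C1C3b and 5.08 in mCherry, whereas Polr3c ran only from 769.9 in mCherry to 1161 in FL.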

How the data were processed

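Poly(A) RNA of 20 libraries in 10 groups was analysed. The C3delt14 group was not analysed here. Per the submitters' processing notes, Trim Galore 0.5.0, FastQC, DESeq2 and mm10 were used. The aligner, the counter and the treatment of multi-mapped reads are not given in the sources used here. The deposited values are a signal, counts divided by 1 size factor per library, in 2 separately scaled tables. Of the values above 0, 100% (371750 chimera and 202943 deletion values) were whole multiples of 1 step per library to within 0.001 read. The reciprocal of each step equals the median-of-ratios size factor of its library, so whole reads were recovered. Library totals were 21059953 to 40448890 reads. The FL reads were the same in both tables.

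limma 3.58.1 (R 4.3.3) with a trend was fitted to log2(value + 1) of all groups of a table, for genes with at least 10 in at least 2 libraries. These fold changes understate the change of low genes. Alternatives were edgeR 4.0.16 and DESeq2 1.42.0 on recovered reads, pseudocounts of 0.1 and 8, other filters, quantile and TMM scaling, only genes with under 10% shared words, only the groups compared, a replicate block and leaving out each library. The limma fit was tested on simulated data. With 2 libraries against 2, an exact permutation test of 1 value cannot give a p below 0.333, so single levels carry an SD and no test. A group at 0 reads was set to a floor of 3 reads in each of its libraries. Intervals and floors cover counting error only, since reads are not independent molecules. Shared words were counted as 50-mers of GENCODE M21 transcripts found in another gene, and 55141 of 55487 identifiers had a symbol.

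The members and lists were chosen with earlier results of these data known. The rule for named genes took all 6 members, for each the 2 genes of most similar profile (Pearson's r over 7 group means, mean of at least 50 in the highest group, under 10% shared words, no Gm, Rik or pseudogene name), and up to 4 genes of each 2-cell list with the highest mean in FL.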

Additional observations from a re-analysis of the deposited data

How the results depend on the processing

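Over all alternatives other than leaving out a library, 1034 fold changes of a member kept their direction and side of the thresholds, 30 passed the thresholds only under the alternative, 7 lost their call and 11 changed sign. Members called went from 1 to 2 in C1+14 against mCherry, from 2 to 1 in C3+14 against FL and from 2 to 1 in C1C3a against FL with a pseudocount of 0.1. They went from 2 to 3 with a pseudocount of 8 or only the groups compared in both C3+14 and C1C3a against FL, and in C3+14 against FL also in edgeR and DESeq2. In C1C3c against mCherry they went from 2 to 3 with a pseudocount of 0.1, edgeR or DESeq2. With a pseudocount of 8 they went from 5 to 4 in C1C3b against mCherry. In C1C3b against C1C3a they went from 6 to 5 with a pseudocount of 8 or edgeR. In C12345delt14 against FL they went from 0 to 3 with a pseudocount of 8, edgeR, DESeq2 or only the groups compared, and to 1 with a filter of at least 50, quantile normalization or only genes with under 10% shared words, and the genes called overall in that comparison were 190 in limma, 30 with a pseudocount of 0.1 or no filter, more than 1.5 times the 190 with a filter of at least 50, 434 with quantile, 467 in edgeR, 1069 with only the groups compared, 1172 with a pseudocount of 8, 1296 in DESeq2 and 45 with the replicate block. DESeq2 called 153 genes for the interaction and limma 0. Only the groups compared gave 461 in place of 1690 in C1C3c against C1+14, and a filter of at least 50 gave 2101 in place of 3215 in C1C3a against C3+14. Testing only genes with under 10% shared words, which leaves fewer genes, lowered the calls overall by more than 1.5 times in 11 comparisons, as from 9531 to 5541 in FL against mCherry. The sign changes were those of Patl2 in C3+14 against FL (0.044 in edgeR and 0.044 with TMM) and in deltC12345+14 against FL (0.00907 in edgeR, 0.063 with quantile, 0.0019 with TMM), Tmem92 in C1C3a against C3+14 (-0.018 with quantile) and in the interaction (0.50 with a pseudocount of 8), Sp110 in C1C3c against C1+14 (-0.40 with quantile), and Ddit4l in deltC12345+14 against deltC12345delt14 (0.12 in edgeR, 0.10 in DESeq2) and in the interaction (-0.094 in edgeR). The cause was not tested. Quantile normalization moved the median of all genes in FL against mCherry from 0.09 to -0.27. Same-numbered replicates did not deviate together (r from -0.101 to 0.0501 over 21 pairs of groups of the chimera constructs and from -0.574 to 0.135 over 6 pairs in the deletion table), so the numbers do not pair the libraries. The replicate block changed no count of members called, for example 4 in FL against mCherry and 0 in C12345delt14 against FL. Crossed numbers, chosen after seeing the data, gave 0 calls between deltC12345+14 and deltC12345delt14. Leaving out 1 library, members called ranged from 0 to 1 in C1C3a against C3+14, 2 to 5 in C1C3c against mCherry, 1 to 3 in C1C3c against C1+14, 1 to 2 in C1+14 against mCherry and 0 to 2 in C12345delt14 against FL. Log2 fold changes that changed sign ranged from -0.110 to 0.0014 (Patl2, C3+14 against FL), -0.361 to 0.0010 (Zfp352, C1C3a against C3+14), -0.308 to 0.936 (Patl2) and -3.13 to 0.164 (Spz1, both C1C3c against C1C3b), -0.758 to 2.53 (Spz1) and -0.524 to 0.797 (Sp110, both C1C3c against C1+14), -0.279 to 0.0427 (Patl2, deltC12345+14 against FL), -0.882 to 0.697 (Ddit4l) and -0.204 to 1.59 (Sp110, both deltC12345+14 against deltC12345delt14), and, in the interaction, -0.987 to 0.671 (Tmem92) and -0.578 to 1.00 (Ddit4l). The cause of these was not tested, and limma with all libraries called none of these results. Depth limits the members at few reads: Spz1 and Patl2 never passed 841 reads in a library, and below 3 reads in each library of a group no further fall can be seen.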

Other observations

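CCTT directly followed by TAATC was noticed in the windows of Zfp352 (3 matches) and of the upstream start of Sp110 (5 matches) and was then searched on both strands in all 32851 RefSeq windows. This run of letters occurred in 178 windows (0.542%) and 3 or more times in 17 windows, of 16 genes. Besides Zfp352 and Sp110 these include Gm4340, Gm8764, Gm20765, Gm21293, Gm21304 and Gm21312 of the near-identical array on chromosome 10, and Esp24, Gm12724, Gm33248 and Gm35974. Of the 10 such genes tested besides the members, limma called 10 higher in each of FL, C1C3a and C3+14, 6 in each of C1C3b and C1C3c, and 0 in C1+14. Over all genes, the shares called higher were 24.5%, 27.4%, 29.6%, 27.6%, 18.3% and 12.4% in the same order. Esp24, at 5.17 on the log2 scale in FL, Gm12724 (9.29), Gm33248 (8.40) and Gm35974 (8.64) lie outside the array. Copies of 1 array count as 1 sequence, and the letters were picked from genes known to respond, so no test was made.

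With at least 1 match the share depended on repeated genes. Of 74 tested genes besides the members, 54.1% were called higher in FL and 66.2% in C3+14, against 24.5% and 29.6% of all genes. Of the 41 with under 10% shared words, 22.0% were called higher in FL, 41.5% in C3+14 and 31.7% in C1C3a, against 24.5%, 29.6% and 27.4% of all genes. The shares over all genes include genes with more shared words, so these sets are not alike. Called lower were 8 of the 41 in FL, 4 in C3+14 and 4 in C1C3a, where 19.6%, 17.7% and 19% of all genes were called lower.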
